A study of Homo sapiens with 12 samples.

Results

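The EGR, IER and KLF early genes described here are 10 protein-coding genes, EGR1, EGR2, EGR3, IER2, IER3, IER5, KLF2, KLF4, KLF6 and KLF10, each of which matched 1 of the 58735 genes in the deposited tables. They were chosen by gene family name with earlier results from these same libraries in view. Which values led to the choice is not recorded, so their levels in all 4 groups and every contrast between them count as used and are given as a description, without p-values. RNA was sequenced from HLE-B3 cells, a virus-immortalized human lens epithelial line, either wild type (WT) or with a CRISPR knockout of ATG7 (labelled Atg7KO, here ATG7 KO), the enzyme that starts the conjugation reactions of autophagy. Cells were untreated (0 h) or exposed to 200 μM H2O2 for 12 h, with 3 libraries in each of the 4 groups. All libraries came from this 1 cell line. Untreated cells had no 12 h counterpart, so that H2O2 and 12 h of further culture cannot be told apart. Knockout cells were grown from picked clones that carried a single-guide vector and had survived puromycin, and the labels do not say which clone was sequenced, so that the genotype and the clone cannot be told apart either.

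Immediate early genes are switched on by signals acting on transcription factors that the cell already holds, so their first wave of transcription needs no new protein. Many of them, EGR1 among them, are driven by the serum response factor SRF and its ETS-family cofactors downstream of the ERK kinases, through a short AT-rich element named the CArG box. The EGR proteins are zinc finger transcription factors that bind GC-rich DNA and are held back by the corepressors NAB1 and NAB2. The KLF proteins are zinc finger factors that bind GC-rich and CACC-type sites, while the IER proteins have no zinc fingers and act in stress signalling and cell survival. In epithelial cells these genes are known for fast and short-lived responses to growth factors, wounding and oxidants.

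The 12 libraries held 15602183 to 17659496 counted reads, with a median of 17205174. Of the 11 lens epithelial markers, PAX6, CRYAB, GJA1 and VIM exceeded 1 FPKM (a level normalized for gene length and sequencing depth) in at least 1 library, the others stayed at or below 0.374 FPKM, and SOX2 had no read in any library. Of the 7 fibroblast markers, COL1A1, COL1A2, PDGFRB and LUM exceeded 1 FPKM, and the summed level of all 7 was 623 to 655 FPKM in untreated WT, 270 to 287 in treated WT, 360 to 512 in untreated ATG7 KO and 247 to 257 in treated ATG7 KO libraries. Among 6 leukocyte markers CD14 alone exceeded 1 FPKM, with sums of 0.903 to 1.24, 2.32 to 2.86, 2.12 to 2.81 and 1.79 to 2.01 FPKM in the same order of groups, and none of the 4 melanocyte and none of the 4 endothelial markers did. In that order the lens epithelial sum was 336 to 357, 335 to 356, 255 to 398 and 242 to 250 FPKM, and the sum of 6 lens fibre markers 2.38 to 2.60, 1.86 to 2.24, 1.57 to 2.60 and 1.28 to 1.87 FPKM. The endothelial sum was 0.234 to 0.398, 0.275 to 0.357, 0.737 to 0.842 and 0.457 to 0.697 FPKM, and the melanocyte sum 0.387 to 0.557, 0.403 to 0.559, 0.257 to 0.749 and 0.521 to 0.734 FPKM. All of these sums but that of the melanocyte markers had at least 1 pair of groups under the same treatment or of the same line that did not overlap, and their part in the results below was not tested. ATG7 itself had 260 to 561 reads per library, with 2.55 ± 0.313 FPKM in untreated WT and 3.55 ± 0.205 in untreated ATG7 KO cells, and 1.96 ± 0.0411 and 2.19 ± 0.137 FPKM after H2O2 (mean ± SD, n = 3), so its mRNA was not lower in the knockout and does not check the label. The library labelled Atg7KO_0h replicate 1 stood apart, with a mean correlation of 0.975 with its own group against 0.985 for its mates and at least 0.994 in the other groups. The median gene length over its reads was 4974 bases, against 5739 and 5741 in its mates, and the members' values and the counts of each gene list without it stand beside those with it. The treated WT libraries also leaned to short genes, at 5276, 5289 and 5254 bases. Untreated WT libraries were at 5737 to 5772 and treated ATG7 KO libraries at 5676 to 5718 bases.

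EGR1 (ENSG00000120738) lies on the plus strand of chromosome 5, at 138465490 to 138469315 of GRCh38, and has 2 exons. EGR2 (ENSG00000122877) lies on the minus strand of chromosome 10 at 62811996 to 62919900, and its main transcript also has 2 exons. The 250 bases before their start sites are shown because these windows held a match to the CArG box, marked in capitals, on either strand. The IER5 window is shown with the capitals marking a match to the heat shock element (GAANNTTC or TTCNNGAA), which was absent from the windows of the other members listed. All are written 5′ to 3′ on the strand of the gene, from the RefSeq promoter table on GRCh38.p14.
EGR1, chr5:138465229-138465478, plus strand: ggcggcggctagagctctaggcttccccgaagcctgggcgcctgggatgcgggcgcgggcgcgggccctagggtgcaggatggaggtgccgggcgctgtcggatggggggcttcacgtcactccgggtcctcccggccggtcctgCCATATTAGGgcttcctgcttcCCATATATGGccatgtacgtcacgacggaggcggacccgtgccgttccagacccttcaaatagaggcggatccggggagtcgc
EGR2, chr10:62816367-62816616, minus strand: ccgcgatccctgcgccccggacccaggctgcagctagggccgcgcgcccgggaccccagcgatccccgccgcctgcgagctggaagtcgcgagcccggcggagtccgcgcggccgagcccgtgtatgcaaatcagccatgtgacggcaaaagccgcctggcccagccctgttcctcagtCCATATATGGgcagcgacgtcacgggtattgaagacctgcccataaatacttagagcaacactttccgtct
IER5, chr1:181088450-181088699, plus strand: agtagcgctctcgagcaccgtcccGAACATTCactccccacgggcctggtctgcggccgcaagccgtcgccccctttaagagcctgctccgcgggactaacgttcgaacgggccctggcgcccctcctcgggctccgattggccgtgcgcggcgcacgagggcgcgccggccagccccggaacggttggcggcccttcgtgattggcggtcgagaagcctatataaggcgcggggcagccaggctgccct

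Windows of 7 of the 10 members were searched, with 9 start sites, 3 of them for EGR2. Start sites on chromosome 8, which holds EGR3 and KLF10, were left out of the member search but not of the background. No window was found for IER3. The counts below therefore say nothing of these 3 genes. EGR1 had CArG boxes beginning 105 and 83 bases before its start, and EGR2 had 1 beginning 71 bases before the start shown. The other 2 EGR2 windows, and those of IER2, IER5, KLF2, KLF4 and KLF6, had no match within 250 bases. Not all of these bases lie outside exons. In the IER2 window 223 bases are in exons of STX10. In the KLF6 window 72 and in the KLF2 window 9 bases are in exons of the gene itself. Of all 35097 windows of this length in the table, 1.16% held a CArG box. TGACG, the shorter form of the cAMP response element, occurred in windows of 4 of the 7 members and in 21.2% of all windows. The EGR site GCGNGGGCG occurred in 4 members and in 8.41% of all windows, and the GC box GGGCGG, which can overlap it, occurred in 5 members and in 42.6%. Member counts took a match in any window of a gene, 3 windows for EGR2, while the percentages are per window. EGR2 had its GC boxes in the 2 windows not shown. A κB site (GGAGCTCCCC) occurred in 1 member, in an EGR2 window not shown, and in 9.95% of all windows. No member window held the full cAMP response element TGACGTCA, the AP-1 site TGANTCA or the TATA box TATAAA. These occurred in 1.65%, 6.57% and 10.7% of all windows. The heat shock element of IER5 began 226 bases before its start, and 11.6% of all windows held one. These matches are descriptions of letters on either strand and say nothing of binding in these cells.

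EGR1 was the most abundant of the 3 EGR genes in every group. Its levels in the 3 libraries were 10.7, 9.15 and 8.61 FPKM in untreated WT and 59.9, 51.7 and 56.5 FPKM in treated WT cells. In ATG7 KO cells they were 5.53, 6.47 and 7.16 FPKM before and 6.35, 6.83 and 7.51 FPKM after H2O2. The treated WT libraries stood above all others, the untreated WT libraries came next, and the untreated and treated knockout libraries overlapped. EGR1 rose 5.91-fold in WT cells (log2 fold change 2.56 ± 0.07, SE) and had a ratio of 1.08 in ATG7 KO cells (0.10 ± 0.13). In bulk RNA, fewer cells that express a gene and less of its RNA per cell cannot be told apart.

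EGR2, known best for its part in myelination by Schwann cells, was far lower. It had 6 to 11 reads per library in untreated WT and 121 to 174 in treated WT cells, which gave 0.109, 0.0884 and 0.168 FPKM against 2.78, 2.46 and 1.91 FPKM. In ATG7 KO cells it had 11 to 23 and then 68 to 109 reads, or 0.181, 0.350 and 0.307 FPKM against 1.41, 1.12 and 1.70 FPKM. No 2 of the 4 groups overlapped. EGR2 was the only EGR gene that passed the test as higher in both lines, with log2 fold changes of 4.27 ± 0.25 in WT and 2.32 ± 0.29 in ATG7 KO cells.

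EGR3 (ENSG00000179388), a close relative of EGR1, lies on the minus strand of chromosome 8 at 22687659 to 22693302 and has 2 exons. Its levels were 0.331, 0.101 and 0.244 FPKM in untreated WT and 3.81, 3.01 and 2.51 FPKM in treated WT libraries, from 9 to 28 and 210 to 314 reads. In ATG7 KO libraries they were 0.225, 0.370 and 0.223 FPKM untreated and 0.241, 0.251 and 0.511 FPKM treated, from 18 to 43 reads. Treated WT libraries were alone above 1 FPKM, and the other 3 groups overlapped. The log2 fold change was 3.79 ± 0.24 in WT and 0.29 ± 0.39 in ATG7 KO cells. An antisense gene, AC055854.1, shares 164 exon bases with EGR3 and had 0 to 11 reads per library. Use of strand in counting is not given in the sources used here.

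**Figure D1:**
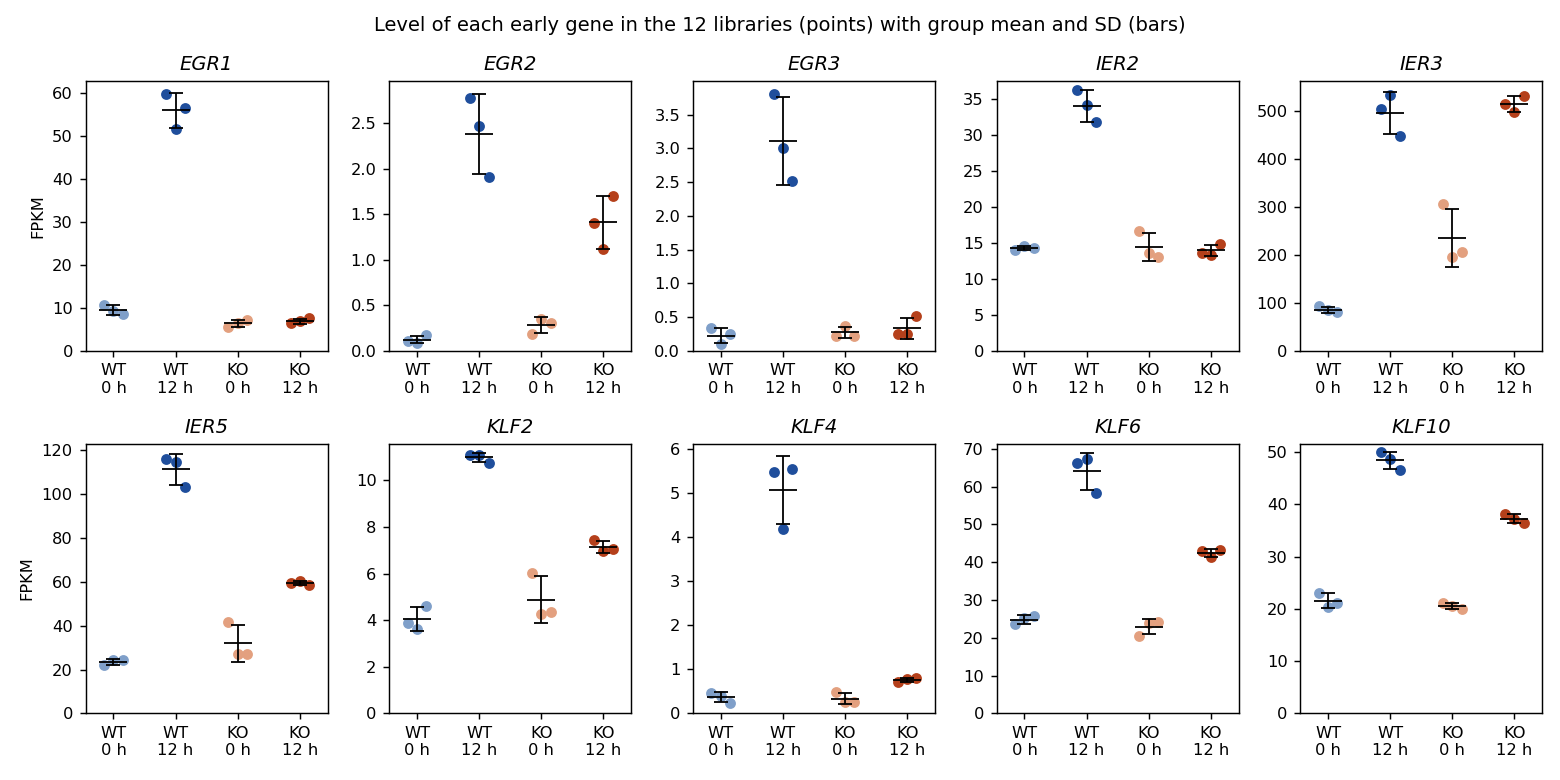
Level in FPKM (linear axes from 0) of the 10 early genes in each of the 12 libraries, in WT and ATG7 KO (KO) cells, untreated (0 h) or after 12 h of H2O2. Points are libraries, horizontal bars the means and whiskers the SD (n = 3). EGR1, EGR3 and KLF4 were high in treated WT cells alone, at 56.0, 3.11 and 5.08 FPKM on average, while treated ATG7 KO cells matched treated WT cells for IER3, at 514 and 495 FPKM.

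IER2 (ENSG00000160888; chromosome 19, plus strand, 13150415 to 13154908), whose product is a small nuclear protein induced by growth factors, has 1 exon in its main transcript. It was at 14.0, 14.6 and 14.2 FPKM in untreated WT and at 36.2, 34.2 and 31.8 FPKM in treated WT libraries. In ATG7 KO libraries it was at 16.7, 13.5 and 13.0 FPKM untreated and at 13.6, 13.4 and 14.9 FPKM treated. Only the treated WT libraries stood apart, and the other 3 groups overlapped. The log2 fold change was 1.25 ± 0.06 in WT and -0.05 ± 0.12 in ATG7 KO cells. The antisense gene AC011446.2 shares 946 exon bases with IER2 and had no reads in any library.

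IER3 (ENSG00000137331; chromosome 6, minus strand, 30743199 to 30744554), a stress-induced regulator of apoptosis and a known target of NF-κB, was the most abundant member and has 2 exons. Untreated WT libraries had 92.3, 84.6 and 79.9 FPKM and treated WT libraries 505, 533 and 447 FPKM. Untreated ATG7 KO libraries had 305, 196 and 205 FPKM and treated ones 515, 497 and 530 FPKM. The untreated knockout libraries stood above the untreated WT libraries and below both treated groups, which overlapped. The rise was 5.78-fold in WT and 2.18-fold in ATG7 KO cells, with log2 fold changes of 2.53 ± 0.06 and 1.12 ± 0.18. The antisense gene IER3-AS1 shares 359 exon bases and had 0 to 4 reads per library.

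IER5 (ENSG00000162783; chromosome 1, plus strand, 181088712 to 181092899), a 1-exon gene whose product is known to promote the activity of the heat shock factor HSF1, was at 22.0, 24.3 and 24.5 FPKM in untreated WT and at 116, 115 and 103 FPKM in treated WT libraries. ATG7 KO libraries were at 41.6, 27.3 and 27.1 FPKM untreated and at 59.4, 60.4 and 58.6 FPKM treated. The 4 groups did not overlap, and in the untreated knockout the library labelled replicate 1 lay well above its mates. The log2 fold change was 2.23 ± 0.05 in WT and 0.89 ± 0.17 in ATG7 KO cells. Without that library the second value was 1.12 ± 0.04.

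KLF2 (ENSG00000127528; chromosome 19, plus strand, 16324817 to 16327874; 3 exons), a factor of quiescent endothelium that ERK5 and MEF2 induce, was at 3.90, 3.61 and 4.60 FPKM in untreated WT and at 11.1, 11.1 and 10.7 FPKM in treated WT libraries. ATG7 KO libraries were at 6.04, 4.25 and 4.36 FPKM untreated and at 7.44, 6.97 and 7.06 FPKM treated. Treated WT libraries were highest and treated knockout libraries second, while the untreated groups overlapped. The log2 fold change was 1.44 ± 0.11 in WT and 0.55 ± 0.16 in ATG7 KO cells, where it did not pass.

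KLF4 (ENSG00000136826; chromosome 9, minus strand, 107484852 to 107490482; 5 exons), known as a pluripotency factor and as a factor of epithelial barriers, had 16 to 30 reads in untreated WT and 236 to 349 in treated WT libraries. This gave 0.470, 0.401 and 0.246 FPKM against 5.50, 4.19 and 5.55 FPKM. In ATG7 KO libraries it had 17 to 29 and then 45 to 51 reads, or 0.481, 0.261 and 0.266 FPKM against 0.718, 0.782 and 0.803 FPKM. The untreated groups overlapped, and the treated knockout libraries lay above both of them but 6.61-fold below treated WT cells. The log2 fold change was 3.76 ± 0.17 in WT and 1.19 ± 0.28 in ATG7 KO cells, where it did not pass.

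KLF6 (ENSG00000067082; chromosome 10, minus strand, 3775996 to 3785281; 4 exons), a widely expressed growth suppressor, was at 23.5, 25.2 and 25.7 FPKM in untreated WT and at 66.3, 67.3 and 58.3 FPKM in treated WT libraries. It was at 20.6, 24.0 and 24.1 FPKM in untreated and at 43.0, 41.2 and 43.2 FPKM in treated ATG7 KO libraries. KLF10 (ENSG00000155090; chromosome 8, minus strand, 102648779 to 102655902; 4 exons), first known as a gene induced early by TGF-β, was at 23.1, 20.3 and 21.2 FPKM and then 49.9, 48.6 and 46.5 FPKM in WT cells. In ATG7 KO libraries KLF10 was at 21.1, 20.5 and 20.0 FPKM and then 38.1, 37.1 and 36.4 FPKM. Both genes showed the same order, with overlapping untreated groups, treated knockout libraries above them and treated WT libraries highest. Both rose in both lines, KLF6 by log2 fold changes of 1.36 ± 0.05 in WT and 0.89 ± 0.10 in ATG7 KO cells and KLF10 by 1.16 ± 0.05 and 0.85 ± 0.08.

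The first comparison asked how WT cells responded to H2O2. All 10 members passed as higher, and all 10 also met the thresholds the study set (adjusted p under 0.01, log2 fold change beyond 1 and mean level above 1 FPKM in either group). A gene was called here at an adjusted p under 0.01 in edgeR's quasi-likelihood test, whatever its size of change. Of the 15913 genes tested, 30.9% passed as higher, 30.1% as lower and 12.5% met the study's thresholds. The members' log2 fold changes ran from 1.16 for KLF10 to 4.27 for EGR2 with a median of 2.38, against a median of -0.01 over all genes tested. For each member the treated libraries lay above the untreated ones, as they did for 36.1% of all genes tested, with 35.3% the other way round. No call changed when any 1 of the 6 libraries was left out. With a correction for gene length all 10 still passed as higher, as did 32.0% of all genes. Values ran from 1.17 for IER2 and KLF10 to 4.25 for EGR2. IER3 was then at 2.31 and KLF6 at 1.44.

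In ATG7 KO cells, 5 of the 10 members, EGR2, IER3, IER5, KLF6 and KLF10, rose with H2O2. EGR2 and IER3 met the study's thresholds. Of the 15475 genes tested in this line 13.6% passed as higher, 12.4% as lower and 11.2% met the study's thresholds. The edgeR test passed 0 members as lower, as did DESeq2, which had 7 as higher (18.7% of all genes), KLF2 and KLF4 added. At an unadjusted p under 0.05 edgeR had 7 higher and 0 lower. The share of all genes at that unadjusted threshold was not computed, here or in later comparisons, so such counts have no background. The members' median log2 fold change was 0.87, from -0.05 for IER2 to 2.32 for EGR2, against -0.03 over all genes. EGR1, EGR3 and IER2 had treated and untreated libraries that overlapped, and the treated libraries of the other 7 all lay above the untreated ones, against 30.2% of all genes tested.

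The knockout counts turned on single libraries. Without Atg7KO_0h replicate 1, 7 members passed as higher, with KLF2 at 0.72 ± 0.12 and KLF4 at 1.52 ± 0.32 added, and so did 29.8% of all genes, against 13.6% with it. In that fit the log2 fold changes of EGR1, EGR3 and IER2 were 0.00 ± 0.09, 0.17 ± 0.34 and 0.06 ± 0.07, which did not pass. Those of EGR2, IER3 and IER5 were 2.09 ± 0.26, 1.34 ± 0.03 and 1.12 ± 0.04, and KLF6 and KLF10 were at 0.81 ± 0.04 and 0.87 ± 0.05. IER3 did not pass without Atg7KO_0h replicate 3, where it was 1.03, or without treated knockout replicate 1, 2 or 3, where it was 1.13, 1.15 and 1.11. IER5 did not pass without untreated knockout replicate 2 or 3, at 0.78 in each case, or without treated knockout replicate 1, 2 or 3, at 0.90, 0.89 and 0.91. Without Atg7KO_0h replicate 3 or any 1 of the treated knockout libraries the count was 3, and 6.54% to 9.16% of all genes passed as higher. Without Atg7KO_0h replicate 2 the share was 9.49%.

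**Figure D2:**
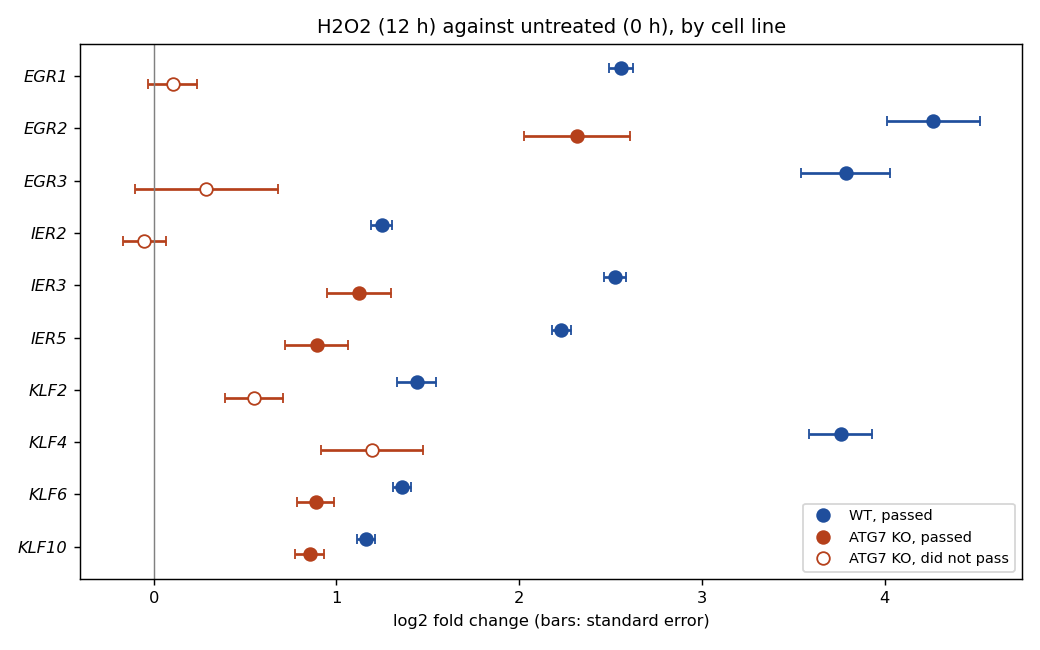
Log2 fold change of H2O2-treated (12 h) against untreated (0 h) cells for the 10 early genes in WT (blue) and ATG7 KO cells (red), with bars for the standard error. Filled points passed the test (adjusted p under 0.01) and open points did not. All 10 WT values lie at 1.16 or above, while EGR1, EGR3 and IER2 lie near 0 in ATG7 KO cells, at 0.10, 0.29 and -0.05.

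The difference between the responses of the 2 lines was fitted over all 12 libraries, as the log2 fold change in ATG7 KO minus that in WT cells. It was negative for every member, and 8 of the 10 passed as lower, of which 7 met the study's thresholds. Of the 16856 genes tested, 7.02% passed as higher, 7.01% as lower and 5.17% met the study's thresholds. The differences were -2.45 ± 0.16 for EGR1, -1.95 ± 0.43 for EGR2 and -3.49 ± 0.54 for EGR3. They were -1.30 ± 0.13 for IER2, -1.40 ± 0.20 for IER3 and -1.34 ± 0.19 for IER5. In the KLF genes they were -0.89 ± 0.19 for KLF2 and -2.56 ± 0.37 for KLF4, with KLF6 at -0.47 ± 0.12 and KLF10 at -0.31 ± 0.10, which did not pass. The 3 IER values were of much the same size, although IER3 started higher in the knockout and rose there, while IER2 had overlapping groups there.

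The median difference over the members was -1.37, against -0.03 over all genes. Without Atg7KO_0h replicate 1 all 10 passed as lower, KLF6 with -0.54 ± 0.06 and KLF10 with -0.29 ± 0.07, and so did 16.3% of all genes, against 7.01% with it. In that fit EGR1, EGR2 and EGR3 were at -2.54 ± 0.11, -2.17 ± 0.42 and -3.60 ± 0.54, and IER2, IER3 and IER5 at -1.18 ± 0.09, -1.17 ± 0.09 and -1.10 ± 0.06. KLF2 was at -0.71 ± 0.16 and KLF4 at -2.22 ± 0.38. EGR2 lost its call in 8 of 12 fits with 1 library removed, with values from -1.94 to -1.76. The library removed was untreated WT replicate 1 or 2 or treated WT replicate 1 or 2. In the knockout it was untreated replicate 2 or 3 or treated replicate 1 or 2. These fits passed 4.10% to 8.12% of all genes as lower. KLF2 did not pass without untreated WT replicate 1 or 2, any treated WT library or any treated knockout library, with values from -0.91 to -0.81. In those fits 4.10% to 4.85% of all genes passed as lower. DESeq2 passed all 10 as lower, with 11.3% of all genes. With a replicate block (5.96% of all genes lower) EGR2 did not pass. With a correction for gene length (8.07% lower) KLF2 was -0.57 and did not pass. Under that correction IER3 was at -1.05 and KLF6 at -0.58, and both passed as lower.

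In untreated cells ATG7 KO and WT libraries were compared directly. IER3 passed as higher in the knockout, 2.75-fold by mean FPKM, with a log2 fold change of 1.46 ± 0.18, and was the only member called and the only one to meet the study's thresholds. Of the 15357 genes tested 4.42% passed as higher, 3.28% as lower and 3.50% met the study's thresholds. By edgeR 0 members passed as lower, against 1, EGR1, with DESeq2 (7.57% of all genes). At an unadjusted p under 0.05 edgeR had 3 higher and 1 lower, again without a share of all genes to set beside them. EGR1 was at -0.57 ± 0.14, EGR2 at 1.20 ± 0.40 and IER5 at 0.44 ± 0.18, with groups that, like those of IER3, did not overlap, and the remaining 6 members lay between -0.16 and 0.28 with groups that overlapped. Of all genes tested 45.3% had groups that did not overlap.

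Without Atg7KO_0h replicate 1, 3 members passed as higher and 1 as lower: IER3 at 1.24 ± 0.05, EGR2 at 1.43 ± 0.47 and IER5 at 0.21 ± 0.05, and EGR1 at -0.47 ± 0.09. In that fit 18.2% of all genes passed as higher and 17.9% as lower, against 4.42% and 3.28% with the library. The other members were at 0.41 ± 0.39 for EGR3, -0.10 ± 0.07 for IER2, 0.10 ± 0.15 for KLF2, -0.49 ± 0.40 for KLF4, -0.04 ± 0.05 for KLF6 and -0.08 ± 0.06 for KLF10. IER3 did not pass when WT_0h replicate 1, 2 or 3 was left out, with values of 1.51, 1.45 and 1.41. In each of these fits 1.14% of all genes passed as higher. IER3 is 1356 bases long, at the 10.9th percentile of gene length among 16856 genes tested, and Atg7KO_0h replicate 1 held more reads from short genes than its mates. With a correction for gene length the IER3 value was 1.26 and passed.

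After H2O2, 9 of the 10 members were lower in ATG7 KO than in WT cells, and IER3 did not pass. EGR1, EGR3, IER2 and KLF4 met the study's thresholds. Of the 15909 genes tested 27.7% passed as higher, 27.9% as lower and 7.46% met the study's thresholds. The level in the knockout was 0.123 times that in WT cells for EGR1, 0.107 times for EGR3, 0.151 times for KLF4 and 0.409 times for IER2. The log2 fold changes of these 4 were -3.03 ± 0.06, -3.22 ± 0.22, -2.73 ± 0.14 and -1.30 ± 0.06. IER5 was at -0.91 ± 0.04, EGR2 at -0.76 ± 0.16, KLF2 at -0.63 ± 0.09, KLF6 at -0.60 ± 0.04 and KLF10 at -0.39 ± 0.04.

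IER3 was at 0.05 ± 0.05, with overlapping groups, and at 0.23, passing as higher, with the correction for gene length. Under that correction KLF2 was at -0.45 and KLF6 at -0.64, and both passed as lower. By edgeR 0 members passed as higher, also 0 with DESeq2 and 0 at an unadjusted p under 0.05. The median over the members was -0.84, against 0.00 over all genes tested. Leaving out any 1 of the 6 libraries changed no call, but in the fit of all 12 libraries EGR2 did not pass and 8 members were lower, along with 2521 of all 16856 genes tested. This comparison shares its treated WT libraries with the WT response and its treated knockout libraries with the ATG7 KO response, so the low values here and in those comparisons are not separate observations.

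**Figure D3:**
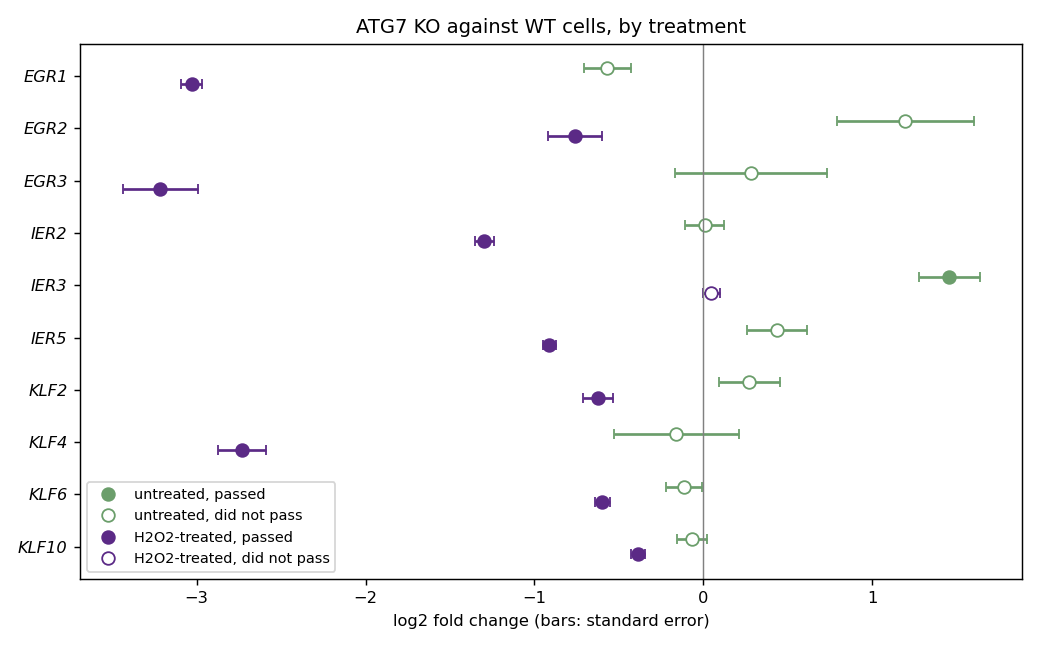
Log2 fold change of ATG7 KO against WT cells for the 10 early genes, untreated (green) and H2O2-treated (purple), with bars for the standard error. Filled points passed the test (adjusted p under 0.01) and open points did not. Treated values lie below 0 for 9 genes, down to -3.22 for EGR3, and IER3 is the only gene with a filled untreated point, at 1.46.

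The members did not share one pattern over the 12 libraries. Among their 45 pairs the Pearson correlation of log2 CPM (counts scaled to library size) ran from 0.354 for EGR1 with IER3 to 0.990 for IER5 with KLF2, with a median of 0.854. These are descriptions, since the points share libraries and fall into the 4 groups of the design. The protein-coding genes above 1 FPKM most like EGR1 were DNAJB1 (r = 0.989), a heat shock cochaperone, and ZFP36 (0.985), which destabilizes AU-rich mRNAs. EGR2 was most like ERN1 (0.991) and TNFAIP3 (0.988), and EGR3 most like ZNF503 (0.978) and SELPLG (0.963). IER2 was most like JUNB (0.996) and TWNK (0.982), IER3 most like CEBPB (0.997) and SQLE (0.996), and IER5 most like MLF2 (0.995) and PLIN2 (0.992). KLF2 was most like its fellow member IER5 (0.990) and SERTAD1 (0.987), and KLF4 most like VASN (0.985) and HNRNPF (0.981). KLF6 was most like TOR4A and PFKFB3 (0.994 each), and KLF10 most like DUSP1 (0.997), a MAP kinase phosphatase, and SLC30A1 (0.994).

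The other 15 genes of the EGR, IER and KLF families in the annotation, among them EGR4, IER5L and 13 KLF genes, moved in both directions. These relatives and the gene lists below were drawn up with results of these libraries known, so their adjusted p-values serve as descriptions. In WT cells 11 had enough reads to be tested, of which 6 rose and 3 fell with H2O2, with a median log2 fold change of 0.32. Over all genes tested 30.9% rose and 30.1% fell. KLF5, an epithelial proliferation factor, rose by 2.16 ± 0.08 (adjusted p = 2.12e-27) and KLF13 by 1.22 ± 0.06 (2.73e-24), while KLF9, a glucocorticoid-induced factor, was at -1.24 ± 0.06 (1.18e-23) and KLF12 at -1.09 ± 0.08 (4.15e-16). In ATG7 KO cells 3 of 10 rose and 1 fell, with KLF5 at 1.48 ± 0.10 (5.95e-05), KLF13 at 1.21 ± 0.22 (0.00437) and KLF9 at -1.14 ± 0.10 (0.000176). There 13.6% of all genes rose and 12.4% fell. EGR4 had 0 reads in every untreated library, 3 to 10 in treated WT and 2 to 4 in treated ATG7 KO libraries, and was not tested.

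In the difference of the responses 1 of 11 of these relatives passed as higher, KLF12 at 0.80 ± 0.18 (adjusted p = 0.0058), and 3 as lower. The 3 were IER5L at -0.95 ± 0.13 (0.00032), KLF5 at -0.68 ± 0.14 (0.00401) and KLF16 at -0.55 ± 0.13 (0.00924). Over all genes 7.02% passed as higher and 7.01% as lower. The median difference over the 11 relatives was -0.015, against -0.033 over all genes. After H2O2 5 of 10 were lower in ATG7 KO than in WT cells, with IER5L at -1.31 ± 0.07 (8.64e-17) and KLF11 at -0.58 ± 0.07 (4.03e-09). Another 2 were higher, KLF12 at 0.65 ± 0.08 (4.45e-08) and KLF13 at 0.33 ± 0.04 (1.14e-07). Among all genes 27.9% were lower and 27.7% higher. In untreated cells edgeR passed 0 of 11, with 1 higher and 3 lower at an unadjusted p under 0.05, and DESeq2 had 0 higher and 1 lower. For all genes edgeR had 4.42% higher and 3.28% lower, and DESeq2 had 8.78% and 7.57%. With Atg7KO_0h replicate 1 left out the counts were 2 higher and 3 lower of 11 in untreated cells. They were 6 and 2 of 10 in the ATG7 KO response and 2 and 5 of 11 in the difference. All genes then passed at 18.2% and 17.9%, 29.8% and 28.6%, and 17.8% and 16.3%, in the same order. Leaving out this library was added for the lists after the data had been seen.

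Upstream of the early genes, the 6 genes for SRF and its cofactors showed no common direction. Shares of all genes that rose and fell were 30.9% and 30.1% in WT and 13.6% and 12.4% in ATG7 KO cells. Shares higher and lower in the knockout were 4.42% and 3.28% untreated and 27.7% and 27.9% after H2O2. In the difference they were 7.02% and 7.01%. In WT cells SRF rose by 0.57 ± 0.05 (adjusted p = 3.09e-13) and the ETS factor ELK3 by 0.63 ± 0.05 (2.52e-16), while the SRF coactivator MRTFB was at -1.49 ± 0.09 (9.76e-20) and ELK4 at -0.32 ± 0.06 (2.04e-06). In ATG7 KO cells ELK3 alone passed, at 0.43 ± 0.09 (0.00837). In untreated cells ELK3 was higher in the knockout by 0.68 ± 0.10 (0.00368), and after H2O2 4 of the 6 were higher and 1, SRF, lower at -0.20 ± 0.05 (0.000346). In the difference of the responses MRTFB, at 1.35 ± 0.27 (0.00328), and ELK4, at 0.47 ± 0.10 (0.00542), passed as higher. Leaving out Atg7KO_0h replicate 1 gave 2 higher and 1 lower of 6 in the ATG7 KO response, 2 and 2 in untreated cells and 2 and 1 in the difference. All genes then passed at 29.8% and 28.6%, 18.2% and 17.9%, and 17.8% and 16.3%.

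Of the ERK cascade 8 of 9 listed genes were tested, and 3 rose and 1 fell with H2O2 in each line. Over all genes 30.9% rose and 30.1% fell in WT and 13.6% and 12.4% in ATG7 KO cells. The ribosomal S6 kinase gene RPS6KA1 rose in both, by 0.38 ± 0.05 (adjusted p = 1.78e-08) and 0.88 ± 0.12 (0.00151), and MAPK3, which encodes ERK1, was at -0.42 ± 0.06 (1.56e-07) and -0.56 ± 0.11 (0.00718). After H2O2 5 were higher and 1 lower in the knockout, where 27.7% of all genes were higher and 27.9% lower. Of the 5 genes for ERK5 signalling and MEF2 factors 2 rose and 1 fell in each line. MEF2A rose by 0.74 ± 0.06 (1.28e-15) in WT and 0.88 ± 0.14 (0.00295) in ATG7 KO cells, and MAP2K5, the kinase of ERK5, was at -1.04 ± 0.11 (1.26e-11) and -0.87 ± 0.16 (0.00439). After H2O2 1 of the 4 tested, MEF2A, was lower in the knockout, at -0.17 ± 0.05 (0.00271). In the difference of the responses 0 of these 5 passed by edgeR, with 1 higher at an unadjusted p under 0.05. Calls by DESeq2 were not counted for the list. By edgeR 7.02% of all genes were higher and 7.01% lower in the difference. In untreated cells edgeR passed 0 of the 8 ERK cascade and 0 of the 5 ERK5 and MEF2 genes. At an unadjusted p under 0.05 it had 1 higher and 1 lower, respectively. There 4.42% of all genes passed as higher and 3.28% as lower. When Atg7KO_0h replicate 1 was left out, 4 of the 8 ERK cascade genes rose and 3 fell in ATG7 KO cells, 2 were higher and 1 lower in untreated cells, and 3 were higher and 1 lower in the difference. For the ERK5 and MEF2 genes the counts were then 2 and 1, 0 and 1, and 0 and 0. Shares of all genes were 29.8% and 28.6%, 18.2% and 17.9%, and 17.8% and 16.3%, in the same order.

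Both EGR corepressor genes rose in WT cells, NAB2, itself an EGR target, by 0.98 ± 0.08 (adjusted p = 1.91e-13) and NAB1 by 0.54 ± 0.05 (1.76e-12). Over all genes 30.9% rose in WT and 13.6% in ATG7 KO cells. In ATG7 KO cells NAB1 rose by 0.40 ± 0.09 (0.00866) and NAB2 was at 0.26 ± 0.09 (0.0567). The difference of the responses passed as lower for NAB2, at -0.72 ± 0.14 (0.00344), and for 7.01% of all genes. After H2O2 NAB1 was higher in the knockout by 0.29 ± 0.04 (1.27e-06) and NAB2 was at -0.18 ± 0.07 (0.0223). In untreated cells edgeR passed 0 of the 2 and 4.42% of all genes as higher, with both higher at an unadjusted p under 0.05. Both passed as higher in untreated cells without Atg7KO_0h replicate 1, NAB1 at 0.45 ± 0.06 (4e-13) and NAB2 at 0.53 ± 0.08 (8.92e-09). Without that library both rose with H2O2 in ATG7 KO cells and NAB2 was again lower in the difference. Among all genes 18.2% were then higher in untreated cells, 29.8% rose in ATG7 KO cells and 16.3% were lower in the difference.

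Of 19 other immediate early genes 18 rose with H2O2 in WT cells, and 10 of the 18 tested rose in ATG7 KO cells. Over all genes 30.9% rose in WT and 13.6% in ATG7 KO cells. BTG2, an antiproliferative gene, rose in both, by 6.05 ± 0.10 (adjusted p = 7.83e-28) and 6.60 ± 0.17 (2.97e-06). In the difference of the responses 13 of 19 passed as lower, down to -3.25 ± 0.38 (0.000148) for the nuclear receptor gene NR4A3, and 1, the kinase gene PLK2, as higher at 0.78 ± 0.10 (0.000217). After H2O2 15 of 19 were lower in the knockout, with GADD45B at -2.65 ± 0.06 (8.62e-23), and 3 were higher, among them TRIB1 at 0.31 ± 0.06 (0.000104). In untreated cells 3 of 18 were higher, TRIB1 by 1.22 ± 0.15 (0.00192) among them, and 3 lower, PLK2 at -1.35 ± 0.10 (0.000261) among them. Higher and lower shares of all genes were 7.02% and 7.01% in the difference and 27.7% and 27.9% after H2O2. In untreated cells they were 4.42% and 3.28%. The median difference of the responses over the 19 genes was -1.08, against -1.37 for the members and -0.03 over all genes. Without Atg7KO_0h replicate 1, 14 of 19 rose in ATG7 KO cells, and 6 of 18 were higher and 6 lower in untreated cells. In the difference 14 of 19 were then lower and 1 higher. Among all genes 29.8% then rose, 18.2% and 17.9% were higher and lower untreated, and 16.3% and 17.8% lower and higher in the difference.

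All 7 FOS and JUN genes rose in WT and 3, FOS, FOSB and JUN, in ATG7 KO cells, as did 30.9% and 13.6% of all genes. The difference of the responses passed as lower for FOS at -3.51 ± 0.42 (adjusted p = 0.00017), FOSB at -3.36 ± 0.24 (7.3e-06), JUNB at -2.10 ± 0.15 (6.1e-06) and JUN at -0.81 ± 0.10 (0.00016). After H2O2 6 of the 7 were lower in the knockout and FOSL2 was higher. In untreated cells edgeR passed 0, with 0 at an unadjusted p under 0.05, and calls by DESeq2 were not counted for this list. By edgeR 7.01% of all genes were lower in the difference, and 27.9% were lower and 27.7% higher after H2O2. In untreated cells 4.42% were higher and 3.28% lower. Without Atg7KO_0h replicate 1, 5 rose in ATG7 KO cells, 1 was lower in untreated cells, and 6 were lower and 1, FOSL2, higher in the difference. Shares of all genes were then 29.8%, 17.9%, 16.3% and 17.8%, in the same order. These lists were also drawn up with results of these libraries known.

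**Figure D4:**
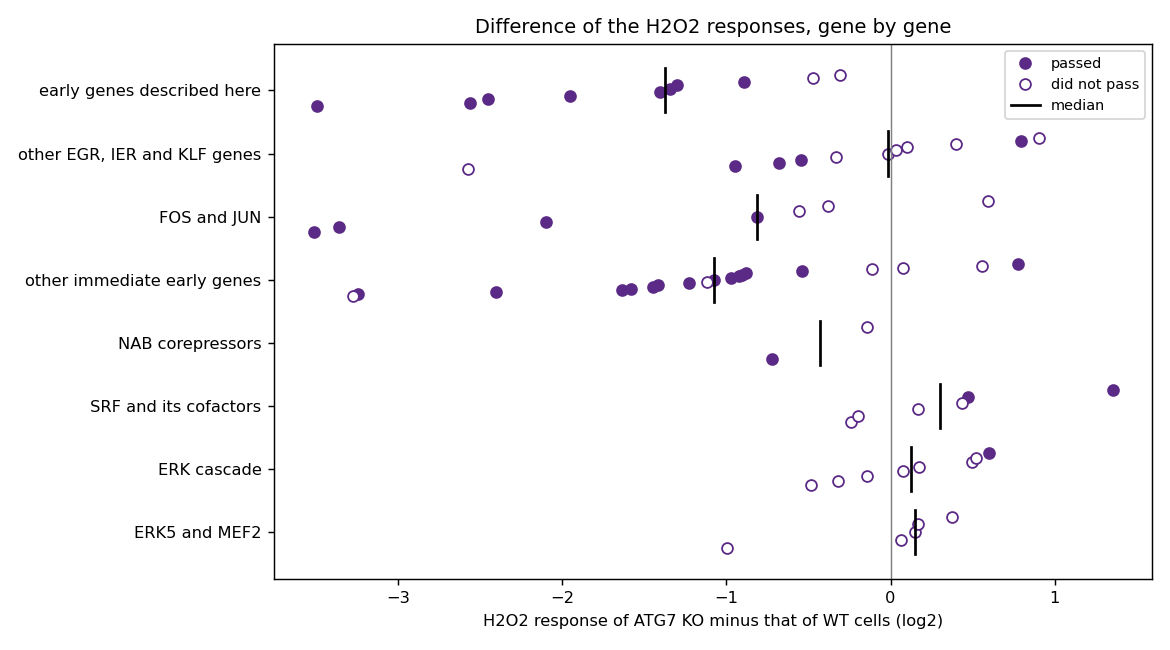
Difference of the H2O2 responses (log2 fold change in ATG7 KO minus that in WT cells, x axis) for each tested gene of 8 lists (y axis). Filled points passed the test (adjusted p under 0.01), open points did not, and black lines are the list medians. The medians of the early genes described here (-1.37), of FOS and JUN (-0.81) and of the other immediate early genes (-1.08) lie below 0. That of the NAB corepressors is -0.43 and that of the other EGR, IER and KLF genes -0.015, against -0.033 over all genes. The medians of the SRF (0.30), ERK (0.12) and ERK5 and MEF2 (0.15) lists lie above 0.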

How the data were processed

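RNA-seq of 12 HLE-B3 libraries (4 groups of 3 biological replicates) was analysed. The authors prepared libraries with the NEBNext Ultra kit, and the submitters' processing notes name HISAT2 2.0.5, featureCounts 1.5.0-p3 and GRCh38. The deposited counts per gene were used as given, and the deposited FPKM values, normalized by the authors for length and depth, gave levels. Gene spans equalled those of GENCODE release 29 for all 10 members.

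Counts were tested in edgeR 4.0.16 (R 4.3.3; filterByExpr with a minimum count of 10, TMM scaling, robust quasi-likelihood F-test, Benjamini-Hochberg over all genes tested), on the 6 libraries of each pair of groups and on all 12 for the interaction. Standard errors (SE) were derived from the test, as the absolute log2 fold change divided by the square root of its F statistic. Alternatives used DESeq2 1.42.0 and limma 3.58.1, other scalings, filters and thresholds, a lowess correction for gene length and each library left out.

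Members and gene lists were chosen with earlier results of these data known. All 10 members were named in every comparison. Of each other list, genes among the 2 highest and 2 lowest called could be named, and as most alike the 2 genes with the highest Pearson r.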

Additional observations from a re-analysis of the deposited data

Results flagged for a closer look

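The interaction term of edgeR's fit over 12 libraries passed the threshold for 8 of the members and 4 of their relatives. Of the 16856 genes tested, 7.02% passed as higher and 7.01% as lower. Members and relatives were both listed with results of these data known, so the calls and values are descriptions and do not test a difference between the lines. On the log2 scale, ATG7 KO minus WT, the members were at -2.45 for EGR1, -1.95 for EGR2, -3.49 for EGR3, -1.30 for IER2, -1.40 for IER3, -1.34 for IER5, -0.89 for KLF2 and -2.56 for KLF4. The relatives were IER5L at -0.95, KLF5 at -0.68, KLF16 at -0.55 and KLF12 at 0.80. For IER2, EGR1 and EGR3 the treated and untreated knockout libraries overlapped, and for IER3 the untreated knockout level was itself 2.75-fold that of WT cells. No group of 4 or more libraries existed in which a single outlying library could be tested.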

How the results depend on the processing

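No fold change that passed changed sign under any alternative. By the study's thresholds, 2 members rose in ATG7 KO cells and 4 were lower in treated ATG7 KO than WT cells. Among relatives 3 rose in WT cells by those thresholds, and 0 were higher and 1 lower in the treated comparison. In the difference of the responses 0 relatives were higher and 0 lower. In either direction, 12.5% of all genes met the thresholds in the WT and 11.2% in the ATG7 KO response. The share was 7.46% in the treated comparison and 5.17% in the difference. In untreated cells DESeq2, all 12 libraries and an adjusted p under 0.05 each had 1 member lower. Relatives lower there numbered 1 with DESeq2, 1 with the gene length correction, 3 with all 12 libraries and 1 at an adjusted p under 0.05. The share of all genes lower there was 7.57% with DESeq2, 5.25% with the length correction and 8.83% with all 12 libraries. The share at an adjusted p under 0.05 was not computed. The gene length correction gave 1 member higher in the treated comparison, where all 12 libraries gave 1 relative higher. Those fits had 26.0% and 14.0% of all genes higher. No filter on low counts, the length correction and all 12 libraries each gave 2 relatives that fell in ATG7 KO cells. In the same order, 6.82%, 15.1% and 19.1% of all genes fell. In the difference, relatives higher numbered 2 with no filter (5.46% of all genes) and 2 at an adjusted p under 0.05. They numbered 0 with limma on log2(FPKM + 1), 0 on log2(FPKM + 0.1) and 0 with the length correction. In those fits 7.63%, 6.46% and 6.44% of all genes were higher, in the same order. The causes of these shifts were not tested.

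With 1 library left out, members higher ran from 3 to 7 in ATG7 KO cells. In untreated cells members higher ran from 0 to 3 and members lower from 0 to 1. The share of all genes higher ran from 6.54% to 29.8% in ATG7 KO cells. In untreated cells it ran from 1.14% to 18.2%, and the share lower from 0.680% to 17.9%. Relatives higher and lower ran from 1 to 6 and 1 to 2 in ATG7 KO cells and from 0 to 2 and 0 to 3 in untreated cells. In the difference they ran from 0 to 2 and 1 to 5. The share of all genes lower in ATG7 KO cells ran from 4.52% to 28.6%. Shares in the difference ran from 3.59% to 17.8% higher and from 4.10% to 16.3% lower. The extremes of 7, 6, 3 and 5 came without Atg7KO_0h replicate 1, as did the highest share of all genes in each range. A replicate block left every count of members called but 1 as it was, with 7 instead of 8 lower in the difference. There 5.96% of all genes were lower with the block and 7.01% without it. Same-numbered libraries correlated by -0.04 to 0.10 in their deviations, so the numbers did not pair them. EGR2, EGR3 and KLF4 had 6 to 32 reads in each untreated library, which limits the precision of their fold changes.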

Other observations

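In the IER and EGR families 1 gene made up most of the level. IER3 gave 69.3% of the summed FPKM of the 3 IER genes in untreated WT, 77.3% in treated WT, 83.5% in untreated ATG7 KO and 87.5% in treated ATG7 KO cells. The summed level was 124 ± 4.83, 640 ± 52.1, 282 ± 70.8 and 587 ± 16.3 FPKM in the same order (SD, n = 3), and the treated groups overlapped, at 582 to 682 FPKM in WT and 571 to 603 FPKM in ATG7 KO libraries. EGR1 gave 96.5%, 91.1%, 92.1% and 80.0% of the EGR sum, and EGR2 rose from 3.97% to 16.3% of it in treated ATG7 KO cells. KLF6 and KLF10 held most of the sum of the 4 KLF members, at 48.9% and 42.4% in untreated WT and 49.8% and 37.7% in treated WT cells. In ATG7 KO cells they held 47.0% and 42.2% untreated and 48.5% and 42.5% treated. KLF2 held 7.94% to 10.1% over the 4 groups. KLF4 went from 0.736% to 3.97% in WT but only from 0.691% to 0.877% in ATG7 KO cells.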
